A study of Mus musculus with 57 samples.

Results

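Adrenergic signalling is the route by which noradrenaline and adrenaline set the rate and force of the heartbeat. The β1 receptor acts through a stimulatory G protein on adenylyl cyclases, which make cyclic AMP (cAMP), and cAMP activates protein kinase A in the cardiac muscle cell. Phosphodiesterases break cAMP down, receptor kinases switch occupied receptors off, and α1 receptors act separately through the G protein Gq and phospholipase C, a branch that RGS proteins shorten. The 9 genes described here were taken by symbol from these steps: the receptors Adrb1, Adra1a and Adra1b, the cyclases Adcy5 and Adcy6, the receptor kinase Grk5, the phosphodiesterases Pde4b and Pde4d, and Rgs2. All 9 were found among the 25416 genes of the acute table and the 54658 genes of the chronic table, and all 9 passed the filter on low counts in both.

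Poly(A) RNA of whole hearts from male wild-type C57BL6/J mice was sequenced in an acute and a chronic study. In the acute study, mice bought at 9 weeks of age received 20 mg/kg doxorubicin (Doxo), an anthracycline chemotherapy drug that injures the heart, in 1 intraperitoneal injection or saline, and hearts were collected on day 5 (Ctrl, n = 14; Doxo, n = 13). A further group also received nicotinamide mononucleotide (NMN), a precursor of NAD+, at 180 mg/kg per day by intraperitoneal injection from 5 days before Doxo, with the last dose 2 h before collection (Doxo-NMN, n = 13). In the chronic study, mice aged 14 to 16 weeks received 5 injections of 4 mg/kg Doxo, or endotoxin-free PBS, and hearts were collected on day 60 (Ctrl, n = 5; Doxo, n = 6), while the Doxo-NMN group (n = 6) had NMN at 500 mg/kg per day in drinking water from 5 days before the first injection. Neither study had a group given NMN without Doxo, and only mice alive at collection gave hearts.

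The acute libraries held 32409622 to 52102850 counts and the chronic libraries 17769886 to 23862287. The lowest count of any of the 9 genes in a heart was 72 in the acute study (Adrb1) and 78 in the chronic study (Adra1a), far above the limit of 3 counts below which a gene could not be told from background. Low counts (1 to 20) of the acute table were mostly even numbers (median 73.6% per heart, against 40.3% in the chronic table), and the reason was not tested. If acute reads were counted more than once, the acute totals and lowest counts given here overstate the depth. With the acute counts divided by 2, an alternative chosen after seeing the data for the 3 acute comparisons, no call of the 9 genes changed in any comparison. The cardiomyocyte markers were high in every heart (6 genes summing to at least 26682 CPM, counts scaled to the normalised library size). Atrial tissue was taken unevenly: the atrial myosin light chain Myl4 reached 100 CPM or more in 8 of 14 Ctrl, 5 of 13 Doxo and 4 of 13 Doxo-NMN hearts of the acute study and in 0 chronic hearts. The library labelled Doxo replicate 6 of the acute study went against its label. Its red cell markers summed to 338 CPM, against 1.19 to 3.85 CPM in the other Doxo hearts and 437 to 4311 CPM in Ctrl, and its neutrophil markers summed to 1.55 CPM, within the Ctrl range of 0.570 to 4.24 CPM. Values of the 9 genes without this library are given beside their results, and those of the wider pathway and marker lists are summarised with them.

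The levels of the 9 genes are compared first per length, as median CPM per kilobase of exon in acute Ctrl hearts. Adcy6 was highest at 35, followed by Adcy5 at 14.9, the other main cyclase of the mouse heart. Adra1b (12.2) and Rgs2 (12) came next, then Adrb1 (5.35) and Grk5 (4.69), then Pde4b (3.31) and Adra1a (3.18), and Pde4d was lowest at 1.99. Of the neighbours in this order, Adra1b and Rgs2, Adrb1 and Grk5, and Pde4b and Adra1a overlapped between hearts. Adcy5 (lowest 13.06) and Adra1b (highest 13.25) overlapped narrowly, as did Adra1a (lowest 2.551) and Pde4d (highest 2.571). Adcy6 and Adcy5, Rgs2 and Adrb1, and Grk5 and Pde4b did not overlap. In acute Doxo hearts Adrb1 moved from the fifth to the last place (2.01), close to Pde4d (2.05), and Pde4b took the fifth (6.62). Chronic Ctrl hearts had the same order of medians as acute Ctrl hearts, with Rgs2 at 7.25 and with Adra1a (1.87) close to Pde4d (1.79).

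Adrb1 encodes the β1-adrenergic receptor, the main catecholamine receptor of cardiac muscle, and lies on chr19:56722199-56733113 of GRCm38, plus strand. In the acute study Adrb1 fell to less than its Ctrl level in nearly all Doxo hearts. Levels ranged from 14.7 to 20.5 CPM in Ctrl (median 18.1), from 2.20 to 20.1 CPM in Doxo (median 6.80) and from 4.59 to 23.8 CPM in Doxo-NMN (median 12.8). Of the 13 Doxo hearts, 11 lay below every Ctrl heart, and the 2 that did not were replicates 6 and 7 (20.1 and 16.7 CPM). In Doxo-NMN, 10 of 13 hearts still lay below every Ctrl heart, but 12 of 13 lay above the Doxo median. In Doxo vs. Ctrl the log2 fold change was −1.16 ± 0.22 (SE), which is 0.449 of the Ctrl level (adjusted p = 1.62e-05, edgeR quasi-likelihood test over 14240 genes). Without the library labelled Doxo replicate 6 it was −1.35 (adjusted p = 1.93e-07). In Doxo-NMN vs. Doxo Adrb1 was 0.74 ± 0.22 higher on the log2 scale, or 1.67-fold (adjusted p = 0.00483), and 0.94 higher without that library (adjusted p = 1.43e-04). Within the 23 hearts under 100 CPM of Myl4 this difference was 0.78 and did not pass (adjusted p = 0.0566), and within the 17 others it was 0.67 and did (adjusted p = 0.0449). In Doxo-NMN vs. Ctrl the log2 fold change of −0.42 ± 0.21 did not pass (adjusted p = 0.15). As fewer cells of a type and less RNA per cell cannot be told apart in whole tissue, the cardiomyocyte marker sum is given beside it: the Ctrl median was 61074 CPM, the Doxo median 50289 CPM and the Doxo-NMN median 66948 CPM, and its part in the result was not tested.

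**Figure D1:**
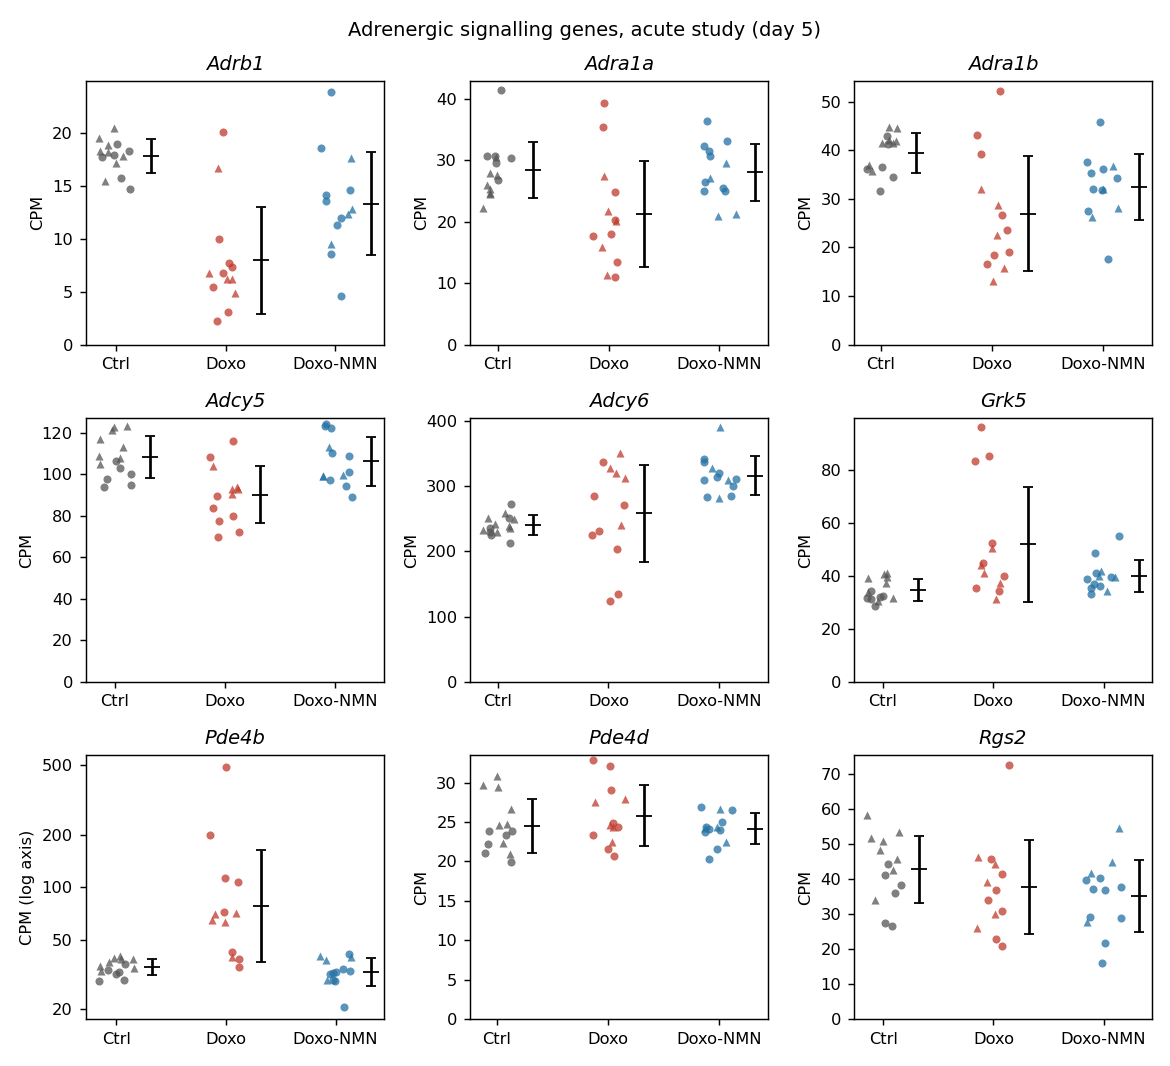
CPM of the 9 genes in each heart of the acute study (Ctrl n = 14, Doxo n = 13, Doxo-NMN n = 13); circles are hearts under 100 CPM of Myl4, triangles hearts at 100 CPM or more, and the bar gives the mean ± SD (for Pde4b, on a log axis, the mean ± SD of log2 CPM). Most Doxo hearts lie below Ctrl for Adrb1, Adra1a, Adra1b and Adcy5 and above Ctrl for Pde4b, with Doxo replicate 13 at 488 CPM.

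The α1 receptor genes moved in the same direction with smaller steps. Adra1a, whose α1A receptor signals through Gq in cardiac muscle (chr14:66635251-66771168, plus strand), had medians of 27.7 CPM in Ctrl (22.3 to 41.3), 20.04 CPM in Doxo (10.9 to 39.3) and, in Doxo-NMN, 27.1 CPM (20.8 to 36.3). Of the 13 Doxo hearts 9 lay below every Ctrl heart, and all 13 Doxo-NMN hearts lay above the Doxo median, although the ranges overlapped. It fell in Doxo vs. Ctrl by 0.42 on the log2 scale (SE 0.14, adjusted p = 0.0084) and rose in Doxo-NMN vs. Doxo by 0.40 (SE 0.14, adjusted p = 0.0174). These values were −0.44 (adjusted p = 0.00697) and 0.42 (adjusted p = 0.0135) without Doxo replicate 6. Adra1b, which encodes the α1B receptor (chr11:43774606-43901210, minus strand), had medians of 41.3 CPM in Ctrl (31.6 to 44.8), 23.7 CPM in Doxo (13 to 52.3) and, in Doxo-NMN, 32.1 CPM (17.7 to 45.8). Here 9 of 13 Doxo hearts lay below every Ctrl heart, while replicates 6, 7, 8 and 13 lay at 39.2, 31.9, 52.3 and 43.1 CPM. The log2 fold change in Doxo vs. Ctrl was −0.55 ± 0.15 (adjusted p = 0.00156). In Doxo-NMN vs. Doxo it was 0.26 ± 0.15 and did not pass (adjusted p = 0.14), but it did pass without Doxo replicate 8 (0.38, adjusted p = 0.0209). Without replicate 6 the values of Adra1b were −0.60 (adjusted p = 5.59e-04) and 0.32 (adjusted p = 0.0691). Within the 23 hearts under 100 CPM of Myl4, the Doxo vs. Ctrl value of Adra1b was −0.33 and did not pass (adjusted p = 0.218), nor did the Doxo-NMN vs. Doxo value of Adra1a within either Myl4 class (0.40, adjusted p = 0.0979, and 0.34, adjusted p = 0.123).

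The cyclase genes did not move together. Adcy5 (chr16:35154877-35305738, plus strand) fell in Doxo vs. Ctrl by 0.27 on the log2 scale (SE 0.07, adjusted p = 6.61e-04). Its level was 93.8 to 123 CPM in Ctrl (median 107) and 69.6 to 116 CPM in Doxo (median 90.6), with 10 of 13 Doxo hearts below every Ctrl heart. In Doxo-NMN it was 88.9 to 124 CPM (median 101), which was 0.24 ± 0.07 above Doxo (log2, adjusted p = 0.00357) and −0.03 ± 0.07 from Ctrl (adjusted p = 0.792). Leaving out Doxo replicate 6, its difference between Doxo and Ctrl was −0.29 (adjusted p = 2.07e-04) and that between Doxo-NMN and Doxo 0.26 (adjusted p = 0.00113). Within the hearts under 100 CPM of Myl4 the Doxo vs. Ctrl value was −0.21 (adjusted p = 0.105), and within the others the Doxo-NMN vs. Doxo value was 0.10 (adjusted p = 0.242). Adcy6 (chr15:98589973-98610076, minus strand) was spread widely in Doxo, from 123 to 351 CPM (median 271) against 212 to 273 CPM in Ctrl (median 237). In Doxo, 3 hearts lay below every Ctrl heart and 6 above, and the fold change did not pass (log2 0.11 ± 0.10, 95% interval −0.10 to 0.32, adjusted p = 0.37). All 13 Doxo-NMN hearts (281 to 391 CPM, median 311) lay above all 14 Ctrl hearts, and Adcy6 was higher in Doxo-NMN than in Ctrl (log2 0.40 ± 0.10, adjusted p = 0.00461) and than in Doxo (0.29 ± 0.11, adjusted p = 0.0203). By p it ranked 1463 of 14240 genes in Doxo-NMN vs. Ctrl, and how many of these separate fully was not counted. Fitted on the 2 groups compared alone, the difference from Doxo did not pass (0.29, adjusted p = 0.0592). Without Doxo replicate 6, Adcy6 in Doxo differed from Ctrl by 0.12 (adjusted p = 0.324) and Doxo-NMN from Doxo by 0.28 (adjusted p = 0.0277). Within the 17 hearts with at least 100 CPM of Myl4, Adcy6 was higher in Doxo than in Ctrl (0.37, adjusted p = 7.75e-04), and Doxo-NMN then was 0.07 from Doxo (adjusted p = 0.617). Within the 23 hearts under 100 CPM, the Doxo vs. Ctrl value was −0.09 (adjusted p = 0.66) and the Doxo-NMN vs. Ctrl value 0.38 (adjusted p = 0.122).

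Grk5 encodes a receptor kinase that phosphorylates agonist-occupied β receptors and starts their desensitisation (chr19:60889749-61095968, plus strand). It rose in Doxo vs. Ctrl by 0.59 on the log2 scale, or 1.51-fold (SE 0.13, adjusted p = 1.58e-04), and fell in Doxo-NMN vs. Doxo by 0.38 (SE 0.13, adjusted p = 0.0168). Levels were 28.6 to 41.1 CPM in Ctrl (median 33.1), 31.4 to 96.1 CPM in Doxo (median 44.2) and 33.1 to 55.2 CPM in Doxo-NMN (median 39.5). Replicates 5, 8 and 13 of Doxo stood apart at 83.4, 96.1 and 85.2 CPM, and the other 10 Doxo hearts did not exceed 52.3 CPM. Without Doxo replicate 8 the Doxo-NMN vs. Doxo difference did not pass (−0.27, adjusted p = 0.0568), and without replicate 6 the Doxo vs. Ctrl value was 0.63 (adjusted p = 6.02e-05) and the Doxo-NMN vs. Doxo value −0.42 (adjusted p = 0.00774). Within the 17 hearts with at least 100 CPM of Myl4, which hold none of these 3 Doxo hearts, the Doxo vs. Ctrl value was 0.17 (adjusted p = 0.158) and the Doxo-NMN vs. Doxo value −0.09 (adjusted p = 0.590), neither of which passed. Within the 23 others the latter was −0.53 and passed (adjusted p = 0.0226).

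Pde4b made the largest step of the 9 genes. It encodes a cAMP-specific phosphodiesterase found in cardiac muscle and in immune cells (chr4:102087543-102607259, plus strand). Levels were 28.8 to 40.5 CPM in Ctrl (median 34.9), 34.9 to 488 CPM in Doxo (median 70.0) and 20.6 to 41.5 CPM in Doxo-NMN (median 32.8). Of the 13 Doxo hearts 10 lay above every Ctrl heart, and all 13 lay above the median of Doxo-NMN. Pde4b rose in Doxo vs. Ctrl by 1.62 on the log2 scale, or 3.08-fold (SE 0.27, adjusted p = 1.88e-06), and fell in Doxo-NMN vs. Doxo by 1.70, to 0.308 of the Doxo level (SE 0.27, adjusted p = 6.66e-06). The Doxo-NMN and Ctrl levels differed by −0.08 ± 0.26 (95% interval −0.61 to 0.45, adjusted p = 0.854). Replicate 13 alone held 488 CPM and the next highest, replicate 5, held 200 CPM. Without replicate 13 the Doxo vs. Ctrl value was 1.12 (adjusted p = 8.84e-07) and the Doxo-NMN vs. Doxo value −1.20 (adjusted p = 3.62e-06). Without replicate 6 they were 1.70 (adjusted p = 4.44e-07) and −1.77 (adjusted p = 9.22e-07). Within the 17 hearts with at least 100 CPM of Myl4 both steps were smaller, at 0.74 (adjusted p = 1.90e-05) and −0.76 (adjusted p = 7.18e-04), and within the 23 others they were 2.07 (adjusted p = 7.82e-04) and −2.10 (adjusted p = 9.27e-04). The 23 include Doxo replicate 13, whose Myl4 of 93.1 CPM lay just under the limit. The next highest Myl4 among them was 33.2 CPM (Doxo-NMN replicate 10).

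Markers of neutrophils, which carry Pde4b, moved in the direction of Pde4b in Doxo vs. Ctrl and in Doxo-NMN vs. Doxo, but not in Doxo-NMN vs. Ctrl. All 4 tested neutrophil markers of 5 listed were higher in Doxo vs. Ctrl, and 3 of 4 were lower in Doxo-NMN vs. Doxo. In Doxo-NMN vs. Ctrl all 4 were still higher (median log2 fold change 3.22), against 15% of all tested genes. Pde4b differed there by −0.08 (adjusted p = 0.854, edgeR). Their sum was 0.570 to 4.24 CPM in Ctrl, with 1 marker at 0 counts in all Ctrl hearts, 1.55 to 271 CPM in Doxo and 3.08 to 30.1 CPM in Doxo-NMN. The highest sum, 271 CPM, was in Doxo replicate 13, followed by 75.2 CPM in replicate 8, 37.8 CPM in replicate 4 and 29.6 CPM in replicate 5. Pde4b in these hearts was, in the same order, at 488, 71.8, 107 and 200 CPM. In Doxo replicate 10, however, Pde4b was at 113 CPM with a neutrophil sum of 13.7 CPM. Doxo-NMN replicate 10 had the highest neutrophil sum of its group, 30.1 CPM, and the lowest Pde4b, 20.6 CPM. The part of these cells in the Pde4b change was not tested. Among the other lists the red cell markers were lower in Doxo vs. Ctrl for 5 of 5, the mural markers for 3 of 6 and the Schwann markers for 2 of 3 tested. The cardiomyocyte list had 4 of 6 lower and 1 higher, the fibroblast list 3 of 5 lower and 1 higher, the macrophage list 2 of 5 lower and 1 higher, and the endothelial list 1 of 5 lower and 1 higher. The atrial list had 1 of 5 lower, and the lymphocyte list had 1 tested gene, which was lower. Of all tested genes 33.3% were lower and 34.8% higher in this comparison. Without Doxo replicate 6 the cardiomyocyte list had 5 of 6 lower, and the counts of higher and lower genes of the other lists named here were as given.

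**Figure D2:**
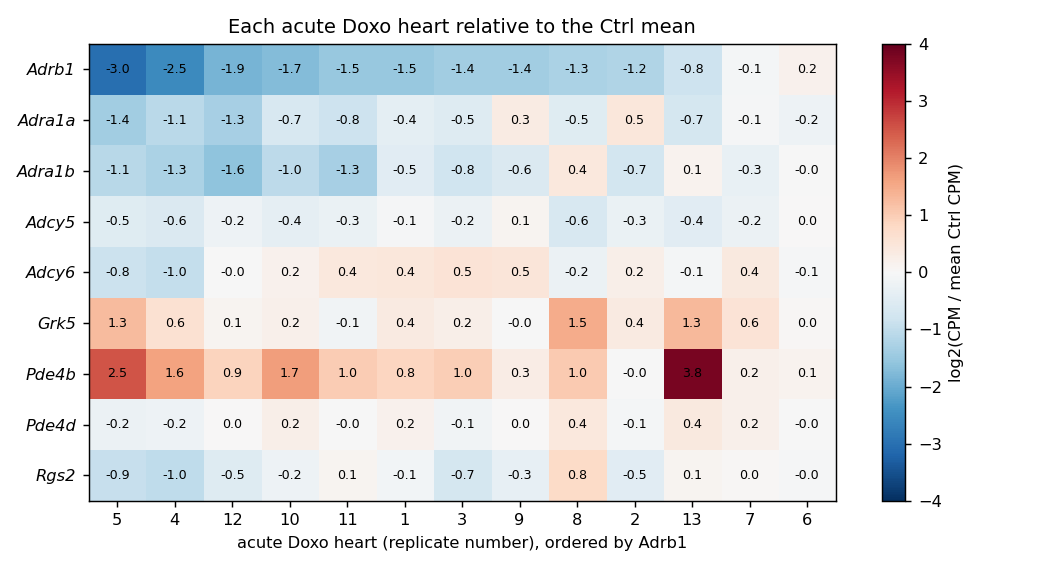
Colours and numbers give, for each of the 13 acute Doxo hearts, log2 of its CPM over the mean CPM of the 14 Ctrl hearts; hearts are ordered by Adrb1. Replicate 6 lies between −0.19 and 0.18 for all 9 genes, replicate 5 has the lowest Adrb1 and replicate 13 the highest Pde4b.

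Pde4d and Rgs2 did not pass in any acute comparison. Pde4d encodes the second PDE4 enzyme of the heart (chr13:108449948-109953461, plus strand). Its medians were 23.8, 24.6 and 24.3 CPM in Ctrl, Doxo and Doxo-NMN, and the 95% interval of the Doxo vs. Ctrl log2 fold change was −0.07 to 0.21. Rgs2 encodes a protein that ends Gq signalling (chr1:143999338-144004161, minus strand). Its medians were 43.4, 37 and 37.1 CPM, with a 95% interval of −0.50 to 0.14 for Doxo vs. Ctrl (log2 fold change −0.18, adjusted p = 0.319). Without Doxo replicate 6 the Doxo vs. Ctrl value of Pde4d was 0.08 (adjusted p = 0.316) and that of Rgs2 −0.19 (adjusted p = 0.300). Within Ctrl, Rgs2 was 34.0 to 58.2 CPM in the 8 hearts with at least 100 CPM of Myl4 and 26.6 to 44.3 CPM in the other 6.

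Counted over the genes, 6 of 9 passed in acute Doxo vs. Ctrl, where 68.1% of all 14240 tested genes passed. Grk5 and Pde4b were higher (34.8% of all genes were) and Adrb1, Adra1a, Adra1b and Adcy5 lower (33.3% of all genes). With a change of at least 1.5-fold required as well, Adrb1, Grk5 and Pde4b remained, 3 of 9, against 30.1% of all genes (14.7% higher and 15.4% lower). In Doxo-NMN vs. Doxo 6 of 9 passed against 53% of all genes, with Adrb1, Adra1a, Adcy5 and Adcy6 higher (25.7% of all genes) and Grk5 and Pde4b lower (27.4%), and 2 of 9 at 1.5-fold or more (17.1%, with 8.17% higher and 8.88% lower). In Doxo-NMN vs. Ctrl 1 of 9 passed (Adcy6), against 26% of all genes (15% higher and 11.1% lower), and 0 at 1.5-fold or more, against 7.11% (3.31% higher and 3.79% lower; edgeR, with 1 of 9 at an unadjusted p under 0.05; DESeq2 also gave 0). These comparisons share the Doxo or the Ctrl hearts. Leaving out the library labelled Doxo replicate 6 changed no call of the 9 genes in them, and Adra1b then also exceeded 1.5-fold in Doxo vs. Ctrl. Without Doxo replicates 6 and 13, Adra1b also passed in Doxo-NMN vs. Doxo (0.41, adjusted p = 0.0171). When the Ctrl and Doxo-NMN hearts were fitted without the Doxo hearts, 4 of 9 passed, as Adrb1 (−0.42, adjusted p = 0.0198), Adra1b (−0.29, adjusted p = 0.0126) and Grk5 (0.21, adjusted p = 0.0199) joined Adcy6, against 39.7% of all genes.

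**Figure D3:**
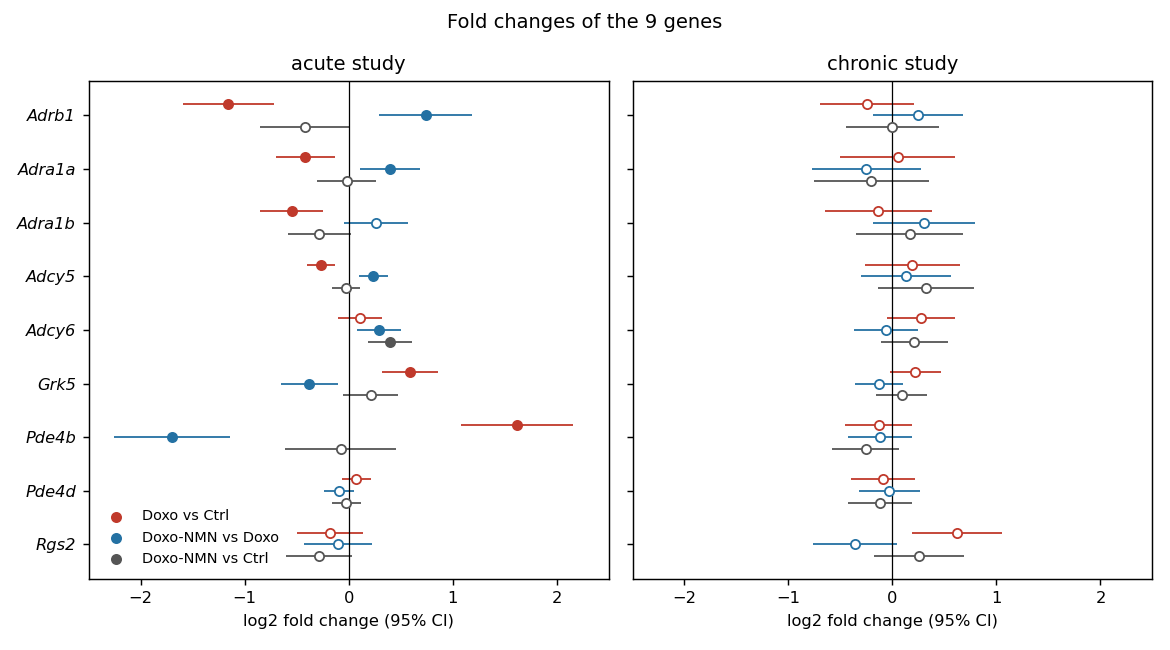
Log2 fold changes with 95% confidence intervals of the 9 genes in each study, for Doxo vs. Ctrl in red, and for Doxo-NMN in blue against Doxo and in grey against Ctrl; filled points passed at an adjusted p under 0.05. In the acute study 6, 6 and 1 points are filled, and in the chronic study 0.

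At day 60 of the chronic study none of the 9 genes passed in any of the 3 comparisons (edgeR, 14960 genes tested). Over all genes 0.0602% passed in Doxo vs. Ctrl (0.0535% higher and 0.00668% lower). In Doxo-NMN 0% passed against Doxo (441 genes at an unadjusted p under 0.05, and 0 by DESeq2) and 0.0401% against Ctrl. At an unadjusted p under 0.05 the counts among the 9 were 1, 0 and 0 (11.1%, 0% and 0%), against 7.85%, 2.95% and 4.73% of all genes, and DESeq2 also called 0 of 9 in each. Adrb1 was 12.4, 18.6, 21.3, 22.1 and 28.2 CPM in the 5 Ctrl hearts, 10.9 to 23.2 CPM in Doxo (median 16.5) and 11.9 to 27 CPM in Doxo-NMN (median 20.6). Its Doxo vs. Ctrl interval reached from −0.70 to 0.21 on the log2 scale, and the value was −0.38 without Ctrl replicate 1. The day 5 estimate of −1.16 lay outside this interval, with its own interval from −1.60 to −0.72. The direct comparison of the 2 effects, given below, did not pass with all hearts (edgeR interaction test, adjusted p = 0.0793). Pde4b was 24.3, 29.9, 30.3, 33.1 and 35.4 CPM in Ctrl, 16.6 to 34.1 CPM in Doxo and 19.8 to 31.5 CPM in Doxo-NMN, with a Doxo vs. Ctrl interval of −0.46 to 0.19. Grk5 was 19.4 to 30.0 CPM in Ctrl and 27.7 to 34.5 CPM in Doxo, and 4 of 6 Doxo hearts lay above every Ctrl heart (log2 0.22 ± 0.12, adjusted p = 0.667).

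Rgs2 had the smallest p of the 9 in chronic Doxo vs. Ctrl. It was 13.3, 21.6, 26.3, 26.3 and 27.2 CPM in the 5 Ctrl hearts and 20.9 to 44.7 CPM in the 6 Doxo hearts (median 36.3), 5 of which lay above every Ctrl heart. The log2 fold change was 0.62 ± 0.21 and did not pass after adjustment (p = 0.00749 and adjusted p = 0.515, edgeR). Without Ctrl replicate 1 it was 0.47 (adjusted p = 0.527). In Doxo-NMN the level was 16.2 to 38.2 CPM (median 28.2), −0.36 ± 0.19 from Doxo (adjusted p = 0.999). Adra1a, Adra1b, Adcy5, Adcy6 and Pde4d lay between −0.14 and 0.27 in chronic Doxo vs. Ctrl. Some chronic hearts stood apart: Ctrl replicate 1 was lowest of its group for Adrb1, Adra1a (4.25 CPM), Adra1b (15.8 CPM), Adcy5 (46.4 CPM), Grk5, Pde4b and Rgs2, and Doxo replicate 2 was highest of its group for Adcy6 (562 CPM), Adra1a (19.5 CPM) and Grk5 (34.5 CPM) and lowest for Adrb1 (10.9 CPM), Adra1b (25.6 CPM) and Pde4b (16.6 CPM). The red cell markers of that Doxo heart summed to 16.2 CPM, against 183 to 355 CPM in the other 5, and its neutrophil markers to 6.49 CPM, the highest of all 17 chronic hearts. Their part in its values was not tested. Leaving out these hearts and Doxo-NMN replicate 4 gave 0 of 9 again, and the Doxo vs. Ctrl value of Adra1a then was −0.28 in place of 0.05.

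**Figure D4:**
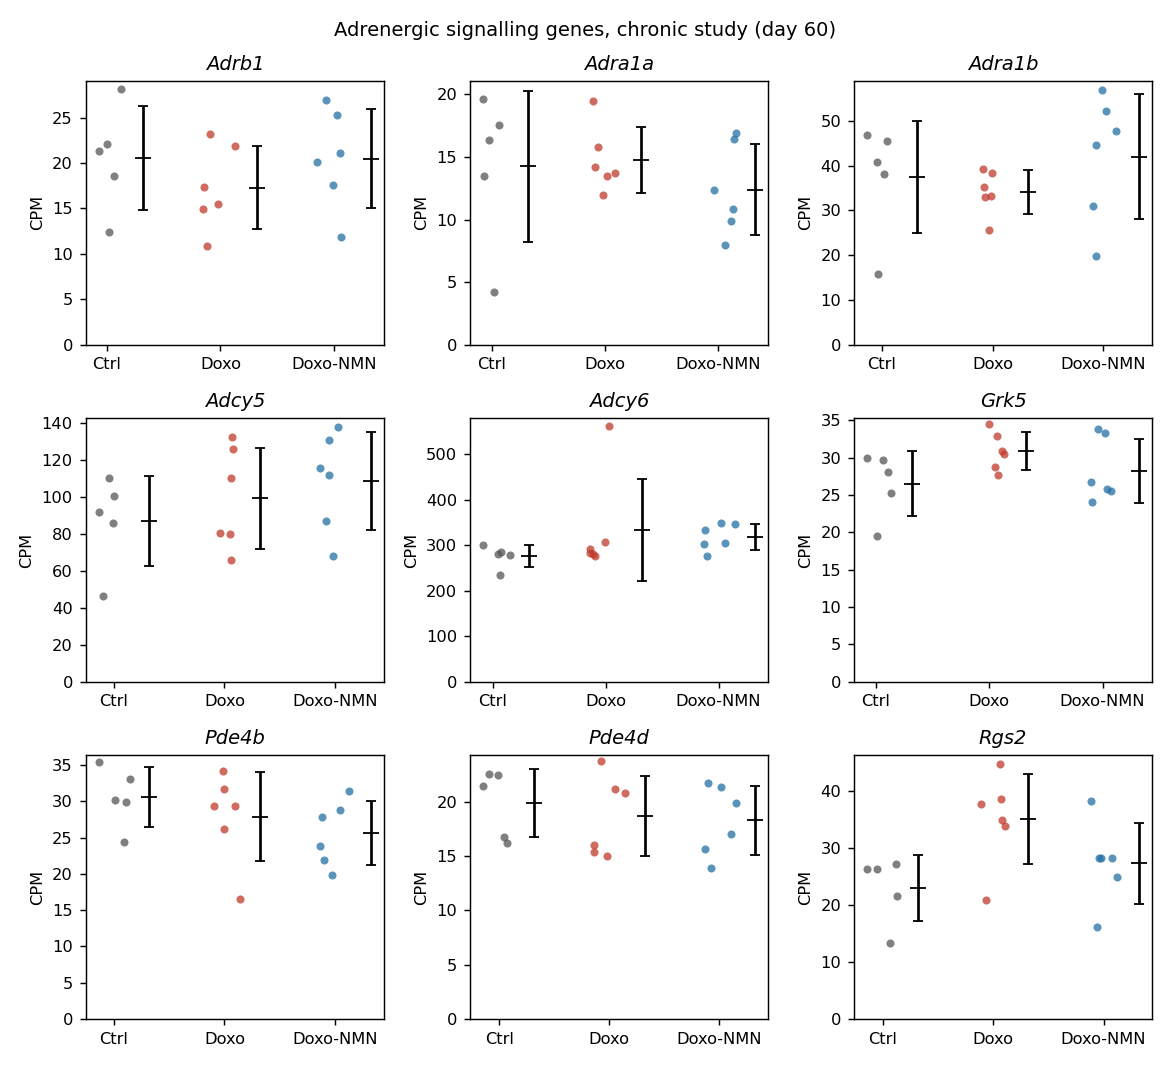
CPM of the 9 genes in each heart of the chronic study (Ctrl n = 5, Doxo n = 6, Doxo-NMN n = 6), all under 100 CPM of Myl4, with the mean ± SD. The 3 groups overlap for every gene, and the Adcy6 panel shows Doxo replicate 2 at 562 CPM.

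The Doxo effects of the 2 studies were compared in 1 fit of their Ctrl and Doxo hearts (study by treatment interaction, edgeR, 14965 genes). The difference passed for 2 of 9 genes, where 19.3% of all genes passed (11% higher and 8.33% lower in the acute study), and both at 1.5-fold or more (12.5%, with 6.50% higher and 6.01% lower). Pde4b had an acute effect of 1.62 and a chronic effect of −0.13 on the log2 scale, a difference of 1.75 ± 0.51 (adjusted p = 0.0176). It stayed past the threshold in all 24 fits that left out 1 acute Doxo heart or 1 chronic heart, with the lowest value, 1.25, without acute Doxo replicate 13. Rgs2 had an acute effect of −0.18 and a chronic effect of 0.62, a difference of −0.80 ± 0.28 (adjusted p = 0.0438). With the acute hearts limited to those under 100 CPM of Myl4, the class of all chronic hearts, the Rgs2 difference was −0.52 and did not pass (adjusted p = 0.290), and that of Pde4b was 2.21 and did (adjusted p = 0.0446). That class holds acute Doxo replicate 13, at 93.1 CPM of Myl4. The acute Rgs2 effect in that class, fitted on the acute study alone, was 0.09 (adjusted p = 0.771). The Rgs2 call was also lost in 13 of the 24 fits, among them the fit without chronic Ctrl replicate 1 (−0.65, adjusted p = 0.105). Adrb1 differed by −0.91 ± 0.38 (adjusted p = 0.0793), and by −1.11 without acute Doxo replicate 6 (adjusted p = 0.0101). Adcy5 differed by −0.46 ± 0.19 (adjusted p = 0.0768), and by −0.49 without that heart (adjusted p = 0.0478). For each of these genes 21 of the 24 fits did not pass (adjusted p up to 0.159 for Adrb1 and 0.200 for Adcy5, edgeR). The smallest differences, −0.78 for Adrb1 and −0.30 for Adcy5, were those without chronic Ctrl replicate 1. Atrial tissue (Myl4 class), dose schedule, day, age, supplier, vehicle and sequencing site all differ between the studies, and apart from the Myl4 class they cannot be told apart.

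Around the 9 genes, 121 other genes of the pathway were listed in 12 classes, of which 116 were tested in the acute study. In acute Doxo vs. Ctrl 29 were higher (25%, against 34.8% of all tested genes) and 46 lower (39.7% against 33.3%), with a median log2 fold change of −0.13 against −0.00157 over all tested genes, and in Doxo-NMN vs. Doxo 35 were higher (30.2% against 25.7%) and 28 lower (24.1% against 27.4%; median 0.05 against −0.000827). In Doxo-NMN vs. Ctrl 13 were higher (11.2% against 15%) and 25 lower (21.6% against 11.1%; median −0.09 against 0.00655). Without Doxo replicate 6 the counts were 32 higher and 48 lower in Doxo vs. Ctrl, 38 and 29 in Doxo-NMN vs. Doxo, and 14 and 27 in Doxo-NMN vs. Ctrl. In the chronic study 0 of 114 passed in each comparison (edgeR), with 11 (9.65%, against 7.85% of all genes) at an unadjusted p under 0.05 in Doxo vs. Ctrl, and in Doxo-NMN 2 against Doxo (1.75%, against 2.95%) and 5 against Ctrl (4.39%, against 4.73%).

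The counts by class that follow are of 4 to 14 genes each and are to be read beside the 34.8% of all tested genes that were higher and the 33.3% that were lower in acute Doxo vs. Ctrl. Among the other receptors 3 of 4 tested were lower in acute Doxo vs. Ctrl and 0 higher. Adra1d, the α1D receptor, which is best known from vascular smooth muscle, fell by 1.74 on the log2 scale (SE 0.25, adjusted p = 2.29e-07) from a Ctrl median of 3.24 CPM to 0.707 CPM and was 1.30 higher in Doxo-NMN than in Doxo (adjusted p = 7.51e-05). Of the other cyclases 4 of 7 were lower and 1 higher. Adcy7 fell by 1.74 (SE 0.22, adjusted p = 1.32e-08), from a median of 18.0 to 4.37 CPM, and was 0.88 higher in Doxo-NMN vs. Doxo (adjusted p = 9.35e-04) but still 0.86 below Ctrl (adjusted p = 0.00264). Of the 14 G protein subunits 3 were higher and 4 lower, with Gnb1, a shared β subunit, lower by 0.35 (SE 0.04, adjusted p = 5.00e-09). Of the 6 other receptor kinases and arrestins 2 were higher and 3 lower, among them Arrb1 (β-arrestin 1, which binds phosphorylated receptors), lower by 0.78 (SE 0.14, adjusted p = 9.88e-06).

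On the cAMP side, 6 of 13 other phosphodiesterases were lower and 2 higher in acute Doxo vs. Ctrl. Pde7b, a cAMP-specific enzyme, was lower by 0.89 (SE 0.14) and 0.68 higher in Doxo-NMN vs. Doxo (SE 0.14), the reverse of Pde4b in each comparison. Of the 9 protein kinase A subunits and inhibitors 4 were lower and 1 higher, with the inhibitor Pkia lower by 0.85 (SE 0.11, adjusted p = 1.73e-08). Of 10 A-kinase anchors, which hold protein kinase A near its targets, 3 were higher and 4 lower, and Akap7 was 0.47 higher (SE 0.06, adjusted p = 3.85e-08). Of 10 protein kinase A substrates 3 were higher and 1 lower. Cacna1c, the pore of the L-type calcium channel, rose by 0.70 (SE 0.10, adjusted p = 3.12e-07), from a median of 295 to 459 CPM, and was 0.36 lower in Doxo-NMN than in Doxo (adjusted p = 0.00438). Of 12 cAMP-response factors and targets 6 were higher and 4 lower. Per1, a clock gene that cAMP signalling and glucocorticoids induce, had the smallest p of the class and rose by 2.98 (SE 0.25, adjusted p = 9.34e-12), from a median of 27.9 to 220 CPM, with 92.9 CPM in Doxo-NMN.

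On the α1 and nerve side, 4 of 12 Epac and α1 effectors were lower and 3 higher, and protein kinase Cα (Prkca) fell by 0.61 (SE 0.08, adjusted p = 1.80e-08). Of the 12 other RGS proteins 6 were lower and 2 higher. Rgs16 rose by 2.04 (SE 0.29, adjusted p = 1.16e-07) at low levels, from a median of 0.756 to 2.0 CPM, and was 2.10 lower in Doxo-NMN vs. Doxo (adjusted p = 1.13e-06). Of 7 tested catecholamine enzymes and transporters 3 were higher and 3 lower. Dbh, which makes noradrenaline in sympathetic nerve endings, fell by 2.43 (SE 0.33, adjusted p = 5.52e-08), from a median of 3.55 CPM in Ctrl to 0.478 CPM in Doxo, with 1.05 CPM after NMN. It was the only sympathetic neuron marker of 4 that passed the filter on low counts, and the sum of that list was 2.33 to 6.97 CPM in Ctrl and 0.186 to 2.33 CPM in Doxo. In hearts with at least 100 CPM of Myl4 the sum was 4.01 to 6.97 CPM in Ctrl and 0.557 to 2.33 CPM in Doxo. In the others it was 2.33 to 3.54 and 0.186 to 2.29 CPM. The fold changes of Dbh and the other genes of the pathway list are not given by Myl4 class. Leaving out Doxo replicate 6 moved each class count by at most 1 gene in either direction, among them the protein kinase A substrates from 1 to 2 lower. Each of the genes named by class then kept its direction and its call in Doxo vs. Ctrl, with Adra1d at −2.07, Adcy7 at −1.99, Dbh at −2.71 and Per1 at 3.09, and Arrb1 also passed in Doxo-NMN vs. Doxo (0.35, adjusted p = 0.0395).

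**Figure D5:**
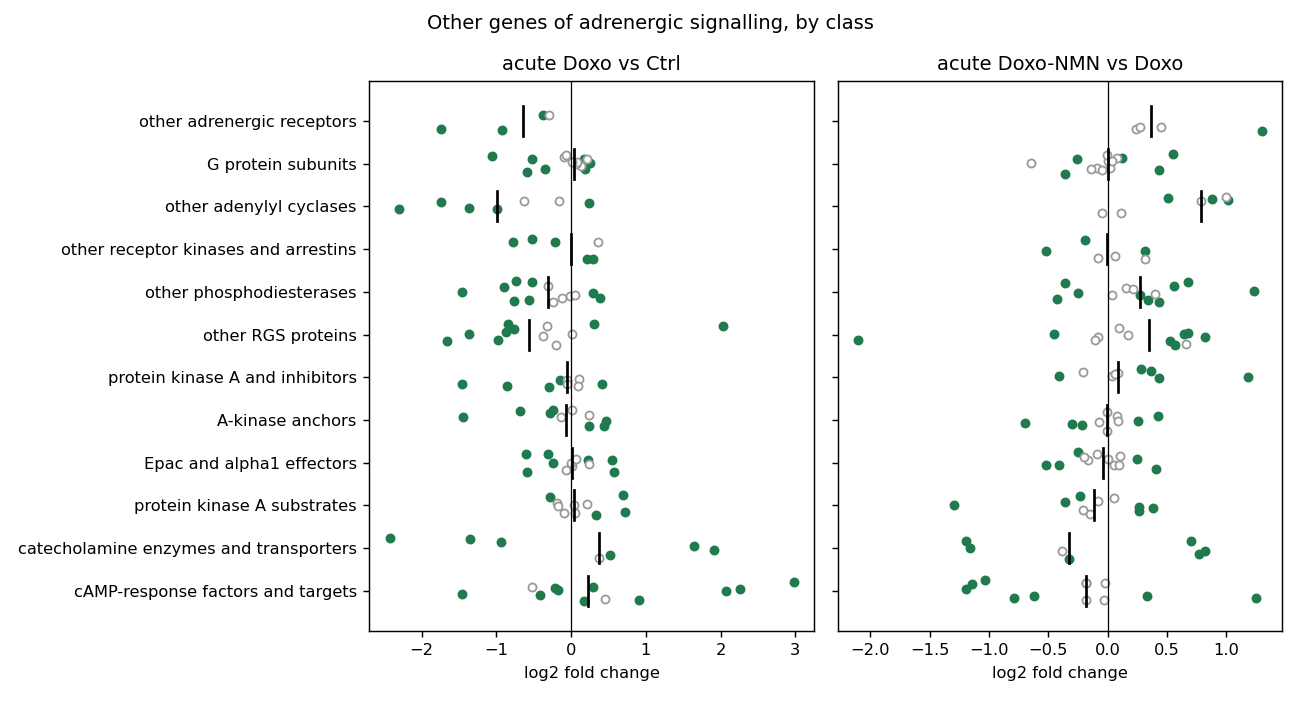
Each point is a tested gene of the pathway list, placed by its log2 fold change in acute Doxo vs. Ctrl (left) or Doxo-NMN vs. Doxo (right); green points passed at an adjusted p under 0.05, and the bar is the median of the class. The other adenylyl cyclases have the lowest class median in Doxo vs. Ctrl (−0.995) and the highest in Doxo-NMN vs. Doxo (0.79).

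Heart-to-heart likeness was described after removing the group and atrial class means from log2 CPM, over the 40 acute hearts. For each of the 9 genes the gene with the highest Pearson r was named, with its r over the 17 chronic hearts. Adra1b went with Agpat3 (r = 0.895 acute and 0.887 chronic) and Adcy5 with the potassium channel gene Kcnk3 (0.771 and 0.795), the 2 of the 9 pairs with the highest r in the chronic hearts. Adrb1 went with Inpp5e (0.918 and 0.552), Adcy6 with Kat14 (0.848 and 0.481), Grk5 with Calr3 (0.877 and 0.420), Pde4b with Gcc1 (0.893 and 0.356) and Rgs2 with Mydgf (0.739 and 0.350). Adra1a with Il15ra (0.840 and −0.692) and Pde4d with Rgs2 (0.718 and −0.208) had the opposite sign in the chronic hearts. The acute values are the highest of 14239 genes each and share library and tissue makeup, so they are given as a description.

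The sequence just before the RefSeq start site is shown for the members whose window holds the short cAMP-response motif TGACG. The motif is read as CGTCA where it lies on the other strand, and CREB family factors are known to bind it. The sequence is shown to give the letters and not as evidence of binding. RefSeq start-site windows (GRCm38.p6) of 250 bases were at hand for 7 of the 9 genes (11 windows), not for Adra1a and Adcy6. The full palindrome TGACGTCA, which contains the short motif on both strands, was in 0 of the 11 windows and in 1.55% of all 32851 windows. The short motif was in 3 of the 11, 1 each of Adrb1, Pde4b and Rgs2, and in 17.8% of all windows. Pde4b had windows 1 to 4, of which only window 1 (chr4:102421305-102421554) held it, and this window lies inside the gene span given above. The window of Adrb1 (chr19:56721867-56722116, plus strand) is printed whole, and of Pde4b (chr4:102421509-102421537, plus strand) and Rgs2 (chr1:144004318-144004346 and chr1:144004200-144004228, minus strand) the motif with 12 bases on each side. These 2 windows are not printed whole because 37 bases of the Pde4b window and 12 of the Rgs2 window lie in annotated exons of the same gene (GENCODE vM21). Whether the Pde4b motif lies within those 37 bases was not checked. Both Rgs2 stretches lie outside the annotated gene. Capitals mark the motif, whose outermost base lies 90 bases before the start site in Adrb1, 34 in Pde4b, and 185 and 67 in Rgs2. These 3 genes moved differently in acute Doxo vs. Ctrl, Adrb1 lower, Pde4b higher and Rgs2 not passing.
Adrb1: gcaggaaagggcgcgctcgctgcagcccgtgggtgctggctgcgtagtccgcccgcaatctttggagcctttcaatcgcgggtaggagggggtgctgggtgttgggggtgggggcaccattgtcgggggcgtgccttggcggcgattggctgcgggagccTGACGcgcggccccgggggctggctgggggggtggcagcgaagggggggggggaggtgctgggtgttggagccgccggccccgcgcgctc
Pde4b: gatttggctgcaCGTCAattttctcatct
Rgs2, farther motif: atgcggcgcctaCGTCAacagcgccctcg
Rgs2, nearer motif: ttggggcgtggcTGACGcctccaggtccc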

How the data were processed

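Poly(A) RNA of 40 acute and 17 chronic hearts was sequenced single-end. Per the labels, the authors aligned reads to mm10 with STAR 2.7.3a and counted them with featureCounts 2.0.0, and they deposited raw counts per gene, 1 table per study. The strand setting and the annotation are not given in the sources used here. Without strand, reads of Adcy6 and of the antisense Gm29331, which overlaps 605 of its 6782 exon bases, cannot be told apart. No 50-base stretch is shared between transcripts of any 2 of the 9 genes (GENCODE vM21).

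Counts were fitted with edgeR 4.0.16 (quasi-likelihood F-test, TMM, filterByExpr), the 3 groups of a study together, with Benjamini-Hochberg adjustment over all tested genes. A gene passed at an adjusted p under 0.05. CPM uses TMM-scaled library sizes, the SE is the absolute log2 fold change over the square root of F, and log2 CPM for likeness used a prior count of 2. Named beyond the 9 genes were the gene of each pathway class with the smallest p in acute Doxo vs. Ctrl, any pathway gene passing in the chronic study (there was none), and the closest gene by r. The 9 genes and all lists were chosen with earlier results of these data known. P-values measure the spread between the labelled replicate hearts. Alternatives were DESeq2 1.42.0, other size factors, filters and dispersions, fits of 2 groups, a replicate block, Myl4 classes, acute counts divided by 2 (added after seeing the data for the 3 acute comparisons), and leaving out hearts. Scripts were tested on simulated data.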

Additional observations from a re-analysis of the deposited data

Results flagged for a closer look

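In chronic Ctrl, Adra1b was 15.8 CPM in replicate 1 against 38.1 to 46.9 CPM in the other 4 hearts, a gap beyond Dixon's 95% limit. In chronic Doxo, Adcy6 was 562 CPM in replicate 2 against 277 to 307 CPM in the other 5 hearts, also beyond the limit. These were 2 of 27 groups looked at, and chance gives about 1 in 20. All 27 are of the chronic study and reuse the same hearts, so they are not independent. The acute groups were larger than the limits used cover and were not looked at in this way.

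The Doxo effect on Pde4b differed between the acute and the chronic study by 1.75 on the log2 scale (edgeR interaction test, adjusted p = 0.0176), and that on Rgs2 by −0.80 (adjusted p = 0.0438). The Rgs2 call was lost in 13 of 24 fits that left out 1 heart (adjusted p up to 0.105) and with acute hearts under 100 CPM of Myl4 (−0.52, adjusted p = 0.290), where the Pde4b call held (2.21, adjusted p = 0.0446). These acute hearts include Doxo replicate 13, at 93.1 CPM of Myl4.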

How the results depend on the processing

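Of 567 fold changes of the 9 genes under alternatives other than leaving out 1 heart, 536 kept their direction and side of the threshold, 13 lost and 5 gained the call, and 13 changed sign, none of them called in either fit. With 1 heart left out, 1711 of 1755 kept both, 14 lost and 7 gained the call and 23, none of them called, changed sign. The cause was not tested for any of these.

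The number of the 9 genes passing in acute Doxo-NMN vs. Ctrl was 4 in the fit of those 2 groups, where 39.7% of all genes passed. It was 0 among hearts under 100 CPM of Myl4, where 7.88% did. In Doxo-NMN vs. Doxo it was 2 with at least 100 CPM of Myl4 (39.3% of all genes). Under 100 CPM it was 1 at 1.5-fold or more, where 39.1% of all genes passed without the fold limit. The acute against chronic difference passed for 1 gene, also at 1.5-fold or more, under 100 CPM of Myl4 (5.15% of all genes passed). The same count was found, as chosen after seeing the data, without chronic Ctrl replicate 1 and Doxo replicate 2 (24.9%). With 1 heart left out, the 2 counts of this difference ranged from 1 to 4 and from 1 to 3 (the chronic hearts and all but 1 of the acute ones were added after seeing the data), and the acute Doxo vs. Ctrl count at 1.5-fold or more from 2 to 4, the highest without Doxo replicate 6. Of all genes, 15.3% passed for the difference without chronic Ctrl replicate 1 and 30.8% without acute Doxo replicate 6. Shares of all genes at 1.5-fold or more were not computed for these fits.

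Sign changes, all without a call, were: under 100 CPM of Myl4, Adcy6 −0.086 and Rgs2 0.086 in Doxo vs. Ctrl, and Adcy5 0.11 and Pde4d 0.10 in Doxo-NMN vs. Ctrl. With at least 100 CPM, Pde4d −0.031 in Doxo vs. Ctrl and Rgs2 0.17 in Doxo-NMN vs. Doxo. Without the 3 chronic hearts that stood apart, Adra1a −0.28 and Adcy5 −0.049 in Doxo vs. Ctrl, Adcy6 0.18 and Pde4d 0.022 in Doxo-NMN vs. Doxo, and without the 2 of them that enter it, Adcy6 0.039 in the comparison of studies. With 1 heart left out, the ranges that crossed 0 were, in acute Doxo-NMN, −0.17 to 0.0089 for Rgs2 against Doxo, −0.055 to 0.032 for Adra1a against Ctrl and −0.046 to 0.0071 for Pde4d against Ctrl. In the chronic study they were −0.18 to 0.20 for Adra1a in Doxo vs. Ctrl, −0.12 to 0.14 for Adcy6 and −0.093 to 0.041 for Pde4d in Doxo-NMN against Doxo, and −0.14 to 0.13 for Adrb1, −0.034 to 0.31 for Adra1b and −0.0085 to 0.14 for Grk5 in Doxo-NMN against Ctrl. For the comparison of studies the range was −0.22 to 0.044 for Adcy6.

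Replicate numbers were not used as pairs: same-numbered hearts correlated above 0.1 in at most 8 of 13 pairs, and at most 1 heart of any comparison correlated best with its own number. The Myl4 class was left in these correlations, so pairing could not be judged from them. A replicate block changed no call of the 9 genes, with Pde4b at 1.27 in acute Doxo vs. Ctrl, and turned Pde4d in acute Doxo-NMN vs. Ctrl (0.0039) and Adrb1 in chronic Doxo-NMN vs. Ctrl (0.011).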
